A study of Mus musculus with 2 samples.

Results

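Maturing granule neurons are the cells of the dentate gyrus that have left the cell cycle, keep the granule lineage factor Prox1 and have begun to express genes of the differentiated granule cell. They were chosen here by their own measured values, as cells with at least 1 unique molecular identifier (UMI) of Prox1 and at least 3 UMIs summed over C1ql3, Nrgn and Calb1. They also had to lack Neurod6, Gad2 and Eomes and to hold at most 1 UMI each of Calb2 and Reln. The rule found 1028 of 21370 filtered cells, 224 of 11414 in the control library and 804 of 9956 in the Setdb1_cKO library. The control library came from wild type mice and the other from mice with a conditional knockout (cKO) of Setdb1, both taken at postnatal day 5 and dissociated dentate gyrus was profiled with the droplet-based 3′ chemistry of 10x Genomics, which counts RNA molecules cell by cell. The sources used here do not give the Cre driver, the deleted exons, any further allele of the wild type mice or the number of pooled animals. Each genotype had 1 library. Differences are therefore between these libraries, no test between genotypes was possible, and all intervals cover counting error only, at 95%.

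Granule neurons are the principal excitatory neurons of the dentate gyrus. They arise from radial glia through intermediate progenitors and neuroblasts, send mossy fibre axons to area CA3, and are born over an extended period that continues after birth. Prox1 sets and keeps their identity against that of pyramidal neurons, Nrgn encodes a postsynaptic calmodulin-binding protein, C1ql3 a secreted synaptic organiser, and Calb1 the calcium buffer calbindin of the mature cell. SETDB1 places trimethylation on lysine 9 of histone H3 (H3K9me3), a mark of silent chromatin. It is known for silencing endogenous retroviruses, germline genes and members of the clustered protocadherin family.

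The gated cells made up 1.96% of filtered control cells (1.72 to 2.23, exact Clopper-Pearson interval) and 8.08% of filtered Setdb1_cKO cells (7.55 to 8.63). Prox1 alone was present in 7651 and 6696 cells, so the libraries differed at the next steps: 968 and 2106 of these cells held 3 or more marker UMIs, and 564 and 1304 of them lacked Neurod6. The Calb2 limit then left 240 and 850 cells. These shares describe dissociated cells of 1 library each and follow from the values that define the gate. The gate counts UMIs, and Setdb1_cKO cells were deeper: gated cells had a median of 6065.5 UMIs (range 1338 to 20813) in control and 7456.5 (1889 to 26969) in Setdb1_cKO. When every cell was first thinned to 3000 UMIs, the gate held 189 and 736 cells. These are in part other cells. Thinning also removes UMIs of the excluded genes, so cells outside the original gate can enter. Of the original gated cells with 3000 or more UMIs, 121 of 218 control and 506 of 797 Setdb1_cKO cells kept 3 marker UMIs after thinning. The numbers therefore do not show that the gate is free of depth.

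The genes of the gate are given as a description. Levels are in CPM, the UMIs of a gene per 1000000 UMIs of the summed gated cells. Prox1 reached 1221 CPM in control against 1118 CPM in Setdb1_cKO, Nrgn 1011 and 1304 CPM, and C1ql3 221 and 257 CPM. Nrgn carried the gate: it reached 3 UMIs by itself in 87.9% of control and 90.4% of Setdb1_cKO cells, while C1ql3 was present in 37.5% and 59.1% of cells. Calb1 was found in 7 control cells (3.12%) and 25 Setdb1_cKO cells (3.11%), so calbindin, the marker of mature granule cells, was rare in both libraries. The marker sum had a median of 5 UMIs per cell in control and 8 in Setdb1_cKO. Just outside the threshold, 113 control and 171 Setdb1_cKO cells held 2 marker UMIs, and just inside it 64 and 102 cells held 3. Across that step Prox1 went from 730 to 909 CPM in control and from 623 to 1086 CPM in Setdb1_cKO, and Bcl11b from 112 to 242 CPM and from 95.6 to 191 CPM.

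Genes outside the gate placed these cells early in granule neuron maturation. Bcl11b, a transcription factor of postmitotic granule neurons, measured 355 CPM in control against 271 CPM in Setdb1_cKO. It reached 90.4 and 75.8 CPM in neuroblasts that held Prox1 and Dcx but none of the 3 markers (191 and 175 cells). In neurons with at least 3 Neurod6 UMIs (353 and 630 cells) it was at 38.5 and 32.4 CPM. Dcx, the microtubule protein of migrating and newly born neurons, was still present in 93.3% and 96.0% of the gated cells, at 698 and 686 CPM. Sox11, another gene of immature neurons, was at 3629 and 3218 CPM. Further granule neuron genes were uneven. Several were sparse: C1ql2 had 9 and 50 UMIs in all gated cells, Tdo2 4 and 64, Plk5 1 and 31, and Rasgrp1 1 and 0. Ntng1 (15 and 32 UMIs), Dock10 (19 and 32) and Dsp (5 and 164) were low too. Others were not sparse: Sema5a was at 491 and 350 CPM, Stxbp6 at 69.5 and 106 CPM and Fam163b at 53.8 and 62.2 CPM. The vesicular glutamate transporters Slc17a7 (25 and 156 UMIs) and Slc17a6 (25 and 200 UMIs) were both low, and Fibcd1, a marker of CA1 pyramidal neurons, had 2 and 3 UMIs. The label therefore held as young Prox1 and Bcl11b neurons, and not as calbindin-positive granule cells.

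The deposited matrices held 14397 control and 12060 Setdb1_cKO barcodes with 82393428 and 87845965 UMIs. The 2 libraries shared 68 barcode sequences, none of them gated in both. Scrublet called 12 (5.36%) and 34 (4.23%) of the gated cells doublets. Xist, the RNA of the inactive X chromosome, had 0 and 8985 UMIs in the gated cells and its antisense partner Tsix, from which its reads cannot be separated without strand, 0 and 771, while the Y-linked Ddx3y had 84 and 0 and Eif2s3y 84 and 0. Genotype and sex of the libraries cannot be told apart. X-linked genes as a group were not shifted: their median log2 ratio was -0.08 over 380 genes, and that of autosomal genes was -0.09 over 10635.

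Some gated cells carried RNA of other cell types. Cells past a set number of UMIs of glial, oligodendroglial, microglial, vascular, fibroblast, ependymal, erythroid or cell cycle genes numbered 68 in control (30.4%) and 200 in Setdb1_cKO (24.9%). All 15 astrocyte and radial glia markers were detected in both libraries, and they summed to 5108 CPM in control and 2859 CPM in Setdb1_cKO, with 91.1% and 84.7% of these UMIs in the cells past the limit. Oligodendroglial markers (8 of 8 detected in both) summed to 265 and 90.9 CPM. Microglia and macrophage markers (10 of 10 in both) summed to 91.8 and 75.4 CPM. The Setdb1_cKO cells held more endothelial and mural RNA, with 17.1 and 73.5 CPM. In control, 3 of these 9 markers were detected, and Pecam1, Flt1, Kdr, Ly6c1, Kcnj8 and Vtn were at 0. They also held more fibroblast RNA (11.8 and 50.9 CPM) and more erythroid RNA (10.5 and 381 CPM), with 96.7% of the erythroid UMIs in 2 cells. Ratios are therefore given also without all of these cells, over the remaining 156 control and 604 Setdb1_cKO cells. No cells were left out in this way from the comparison gates. The neuroblasts without the 3 markers held the glial gene Slc1a3 at 885 and 725 CPM, against 296 and 127 CPM in the gated cells. They held the haemoglobin gene Hbb-bs at 2523 and 180 CPM, and Scrublet called 14.7% and 5.71% of them doublets.

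Setdb1, the targeted gene, was the first check of the labels. Its gene (ENSMUSG00000015697) lies on the reverse strand of chromosome 3 at 95323525 to 95357202 of mm10. It had 71 UMIs in 62 control cells and 130 UMIs in 121 Setdb1_cKO cells, or 46.6 and 20.4 CPM. The ratio of Setdb1_cKO to control was 0.438 (0.326 to 0.594), and 0.515 (0.348 to 0.776) without the cells that carried RNA of other types. After thinning to 3000 UMIs, 12.4% of control and 6.02% of Setdb1_cKO cells held a Setdb1 UMI. In microglia, gated by C1qa, C1qb and C1qc (209 and 208 cells, median depths 5510 and 6071.5 UMIs), the shares were 13.8% and 15.6% and the ratio 0.89 (0.616 to 1.29). Reads at the 3′ end may lie outside the deleted exons, so the remaining UMIs do not tell how many cells had an intact gene.

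Across all genes the gated cells of both libraries lay close together, with a median log2 ratio of -0.09 over 11038 genes with at least 30 UMIs. A ratio of at least 2-fold with an interval that excluded 1 was found for 239 genes higher in Setdb1_cKO (2.17 percent of those measured) and 405 lower (3.67 percent). For 74 genes the whole interval lay at least 2-fold higher (0.67 percent) and for 125 at least 2-fold lower (1.13 percent). At the 1.5-fold limit used for gene lists, 426 genes were higher (3.86 percent) and 783 lower (7.09 percent). These shares are the background for the counts of each gene list below. Fewer lower than higher genes kept their interval once cells with RNA of other types were left out. Those cells were chosen in part by cell cycle, glial and oligodendroglial genes that were themselves lower. The contrast follows in part from that choice and is a description. Of the 74 higher genes, 59 still had an interval above 1 and 69 kept their direction, whereas of the 125 lower genes 27 still had an interval below 1 and 82 kept their direction.

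**Figure D1:**
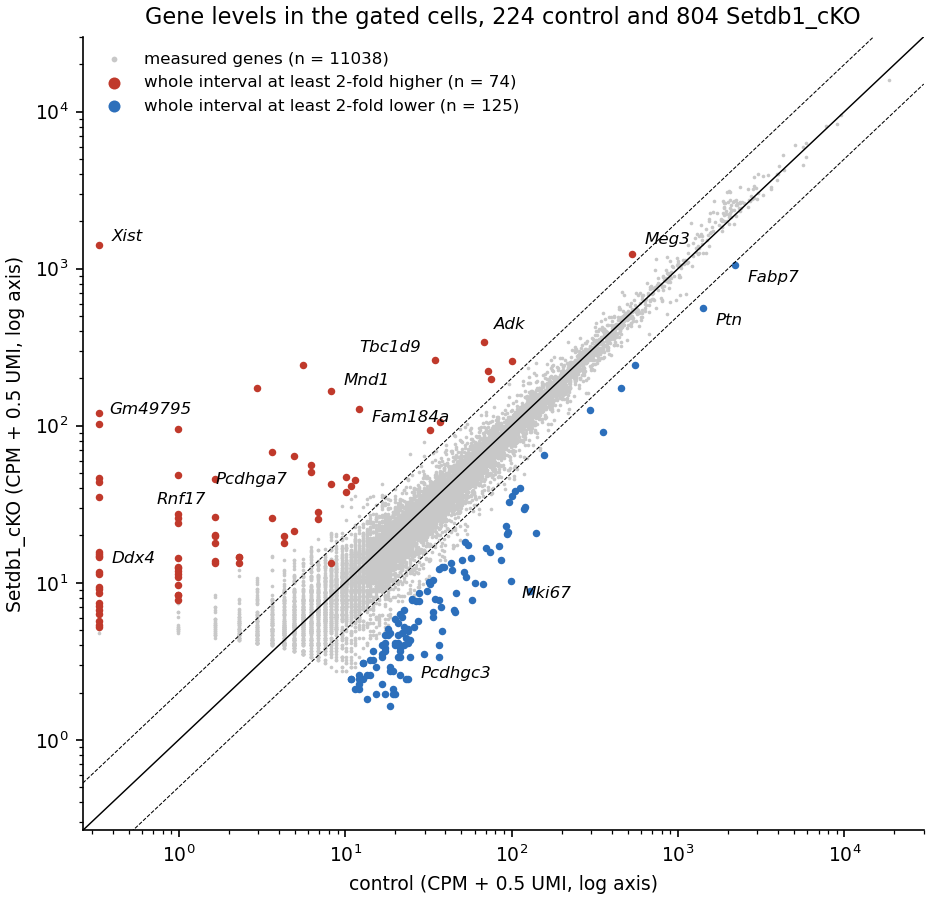
Level of each of 11038 measured genes in the gated cells of the control library (x axis) and the Setdb1_cKO library (y axis), in CPM with a pseudocount of 0.5 UMI on log axes, with dashed lines at 2-fold. The 74 red genes have their whole interval at least 2-fold higher in Setdb1_cKO and reach from near 0 to Meg3 at 531 and 1236 CPM, and the 125 blue genes at least 2-fold lower.

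The genes furthest above control were transcripts that control granule neurons hardly held. Of the 74, 52 were protein coding and 22 were of other gene types, and 22 had no UMI in control. On chromosome 18 lay 12, of which 8 were clustered protocadherins, and 3222401L13Rik and Gm26672 lie in the same region. The shares of all measured genes by type and chromosome are not given here, so these counts show no excess. Genes without UMIs in control could be measured only through the Setdb1_cKO library, so their number is a description. The 74 also held 4 haemoglobin genes, the sex-linked Xist and Tsix, and vascular and fibroblast genes such as Cldn5 and Col1a2. Without the cells that carried other RNA, the ratios of Hbb-bs, Cldn5 and Col1a2 were 1.02, 0.523 and 0.419, with intervals that included 1. Of all 74, 59 then still had an interval above 1. Long noncoding RNAs led the 74. Gm49795 (chromosome 17, 27353861 to 27354668) had 651 UMIs, spread over 382 Setdb1_cKO cells, and none in control. With control set to 3 counts over its gated cells, it was at least 52.0-fold higher. This is a 1-sided limit, and the 2-sided interval begins lower, at 42.1. 2310043L19Rik had 0 and 295 UMIs (at least 23.5-fold), Gm48619 0 and 279 (at least 22.3-fold) and Gm45121 0 and 224 (at least 17.9-fold). Gm7967 had 1 and 611 UMIs, a ratio of 146 (26.2 to 5787). These RNAs have no described role in granule neurons and are given by their levels only.

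3222401L13Rik (chromosome 18, 37655451 to 37661742), a noncoding RNA that lies inside the clustered protocadherin region, had 4 UMIs in control and 1112 in Setdb1_cKO, or 2.62 and 175 CPM. Its ratio was 66.6 (25.9 to 245). After thinning it was present in 0.459% of control and 41.2% of Setdb1_cKO cells, and in 5.00% of Setdb1_cKO microglia. Gm49795 was present in 0 of 218 thinned control cells, which allows a share of up to 1.38% by a 1-sided limit. It was present in 23.7% of Setdb1_cKO cells, with 2.50% in Setdb1_cKO microglia. Both transcripts were thus spread over many gated cells, and their share there was several times that in microglia of the same library.

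Genes of the germline and of meiosis were among the higher coding genes. Of 44 listed genes, 9 were measured and 8 were at least 1.5-fold higher with an interval above 1, against 3.86 percent of all measured genes. Genes of this list had to pass 30 UMIs, which most could do only through the Setdb1_cKO library, so the count is a description. Their median log2 ratio was 3.09, or 2.89 with the genes at 0 set to their bound and 2.18 without the cells that carried other RNA. Summed, the 9 genes went from 89.9 to 418 CPM, a ratio of 4.65 (3.92 to 5.56). The list was chosen with earlier results of these data known and is no independent evidence of a direction.

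Mnd1, a partner of Hop2 in meiotic strand exchange (chromosome 3, 84087933 to 84155786, reverse strand), led the group. It had 12 UMIs in 12 control cells and 1060 UMIs in 523 Setdb1_cKO cells, or 7.87 and 166 CPM. The ratio was 21.1 (12.1 to 41.1) in the gated cells, 23.3 (11.1 to 58.6) in the neuroblasts without the 3 markers and 34.9 (25.4 to 49.4) in the Neurod6 neurons. After thinning, 4.13% of control and 36.6% of Setdb1_cKO gated cells held Mnd1, against 1.80% and 2.50% of microglia. The high level in Setdb1_cKO was thus seen in all 3 neuronal gates, and whether its size differed between them was not tested.

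Ddx4, the germ cell RNA helicase Vasa, had 93 UMIs, all in Setdb1_cKO (at least 7.42-fold higher), and Mov10l1, a helicase of the piRNA pathway, had 0 and 72 (at least 5.75-fold). Both limits are 1-sided, and the 2-sided intervals begin at 5.92 and 4.55. The synaptonemal complex gene Sycp3 had 1 and 53 UMIs, and Rec8, the meiotic cohesin, 1 and 49. Tcfl5, a basic helix-loop-helix factor of spermatocytes, had 7 and 409 UMIs, a ratio of 14.0 (6.73 to 35.0). Rnf17, a tudor-domain protein of male germ cells that is not on the list, had 1 and 152 UMIs, a ratio of 36.4 (6.43 to 1447). Syce2, a central element of the synaptonemal complex, was already present in control, at 52.5 CPM against 98.3 CPM, a ratio of 1.87 (1.48 to 2.39). Tex15 (6 and 71 UMIs) had a ratio of 2.83 (1.24 to 7.98), which was 1.72 (0.679 to 5.57) without the cells that carried other RNA. Brdt, the bromodomain protein of the testis, was the exception, with 11.8 CPM in control and 10.4 CPM in Setdb1_cKO, a ratio of 0.878 (0.515 to 1.57).

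The promoters of 4 of these germline genes are shown because germline genes are a class in which short promoter motifs are well described. Each line gives the 250 bases before the RefSeq start site on GRCm38.p6, 5′ to 3′ on the gene's strand. Capitals mark the E-box CACGTG, which is its own reverse complement, and the E2F-type motif GCGGGAA or its reverse complement TTCCCGC.
Mnd1, chr3:84155787-84156036, reverse strand: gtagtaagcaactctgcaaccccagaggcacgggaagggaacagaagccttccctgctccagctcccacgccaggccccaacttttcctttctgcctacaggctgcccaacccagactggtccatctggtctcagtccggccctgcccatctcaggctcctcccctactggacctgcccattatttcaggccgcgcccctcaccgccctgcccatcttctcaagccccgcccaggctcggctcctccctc
Ddx4, chr13:112652311-112652560, reverse strand: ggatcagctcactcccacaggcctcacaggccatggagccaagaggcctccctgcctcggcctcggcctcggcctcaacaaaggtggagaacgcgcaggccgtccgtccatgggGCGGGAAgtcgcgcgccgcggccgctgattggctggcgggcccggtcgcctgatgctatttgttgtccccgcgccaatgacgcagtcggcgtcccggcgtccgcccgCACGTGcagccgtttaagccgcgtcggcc
Sycp3, chr10:88459337-88459586, forward strand: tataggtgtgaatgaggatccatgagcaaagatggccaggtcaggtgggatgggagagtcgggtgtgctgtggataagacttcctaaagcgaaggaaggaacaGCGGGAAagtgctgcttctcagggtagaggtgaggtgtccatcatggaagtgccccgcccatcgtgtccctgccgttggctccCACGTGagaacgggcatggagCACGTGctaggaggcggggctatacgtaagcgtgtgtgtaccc
Mov10l1, chr15:88982744-88982993, forward strand: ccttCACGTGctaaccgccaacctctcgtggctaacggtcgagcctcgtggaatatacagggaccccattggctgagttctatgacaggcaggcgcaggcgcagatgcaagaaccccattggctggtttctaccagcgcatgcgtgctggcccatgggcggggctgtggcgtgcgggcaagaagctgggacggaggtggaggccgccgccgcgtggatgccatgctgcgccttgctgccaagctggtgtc

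The E-box began 29 bases before the start site in Ddx4, 43 and 64 bases before it in Sycp3 and 246 bases before it in Mov10l1, and neither motif was found in this window of Mnd1. Counting both strands, CACGTG was in 6.02% of all 32851 RefSeq windows of this length and GCGGGAA or TTCCCGC in 3.82%. Counted by gene, the shares were 6.86% and 4.38% of 27025 genes. Windows were found for 8 of the 9 measured germline genes. Of the 8, 5 held the E-box (Brdt, Syce2, Sycp3, Ddx4 and Mov10l1) and 3 the E2F-type motif (Syce2, Sycp3 and Ddx4). Ddx4, Mov10l1 and Sycp3 counted as measured only through their UMIs in the Setdb1_cKO library. The 8 genes were thus chosen in part by their level there, and these motif counts are a description. Brdt held the E-box although its level did not differ between the libraries beyond its interval. Among the 48 of the 74 higher genes with a window, 4 held the E-box (8.33%) and 4 the E2F-type motif (8.33%), close to the 10.2% and 8.58% of all measured genes with a window. The shares were not tested against each other.

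These transcripts were followed cell by cell through 11 genes that were higher in 5 cell classes in earlier results of these data (Gm7967, Tcfl5, Mnd1, Crlf2, Atf7ip, Samd1, Gm48619, Gm49795, 3222401L13Rik, Pcdhga12 and Gm47283). All 11 were at least 1.5-fold higher in the gated cells, a count that supports nothing, since they were chosen on these libraries. Gm47283 has near copies, among them on the Y chromosome, and its counts are uncertain. With each cell thinned to 3000 UMIs, 109 of 218 control cells and 775 of 797 Setdb1_cKO cells (97.2%) held at least 1 UMI of the 11 genes, and 4.59% and 68.8% held 3 or more. The median was 0.5 UMIs per cell in control and 4 in Setdb1_cKO, and the highest control cell held 4. The higher sum was therefore found in most gated Setdb1_cKO cells and not in a few.

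The summed ratio of the 11 genes was similar at each marker level. This is a description only, since the genes were chosen on these libraries and the levels are those of gate genes. Gated cells were split by the number of C1ql3, Nrgn and Calb1 UMIs left after thinning, into 56 control and 151 Setdb1_cKO cells with 0 or 1, 91 and 283 cells with 2 or 3, and 71 and 363 cells with 4 or more. The summed ratio of the 11 genes was 5.84 (4.78 to 7.20), 5.33 (4.47 to 6.41) and 5.84 (4.81 to 7.17) in these 3 groups. The lowest group also held the most glial RNA, with 12193 CPM of astrocyte and radial glia markers in control and 6930 CPM in Setdb1_cKO. Without the cells that carried other RNA the summed ratio over all gated cells was 5.20 (4.55 to 5.97).

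**Figure D2:**
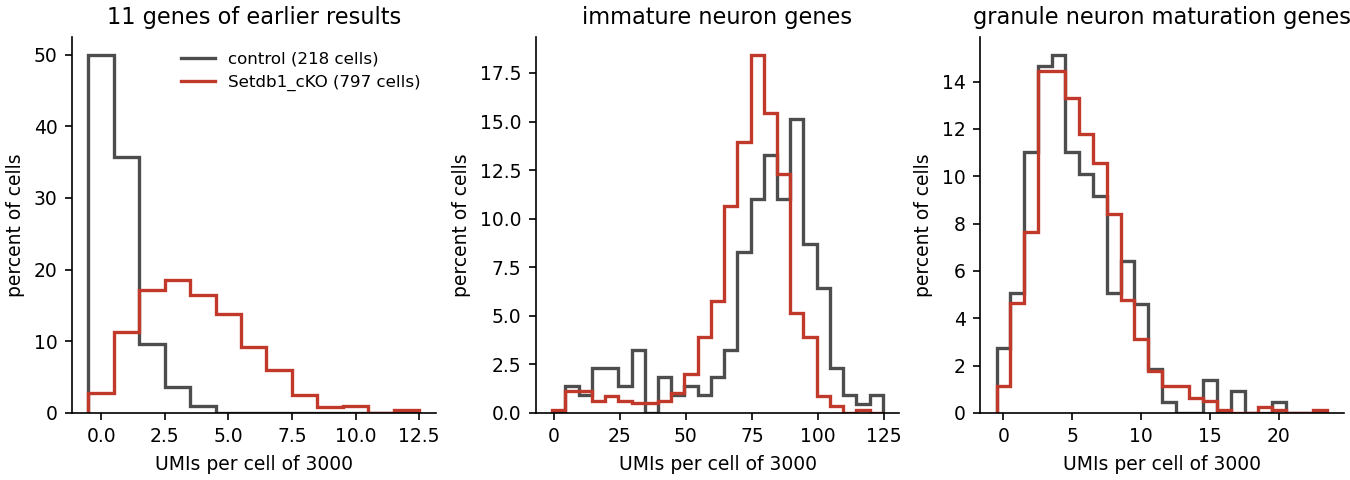
Histograms of UMIs per cell, after thinning to 3000 UMIs, for the 11 genes higher in earlier results, for 19 immature neuron genes and for 21 maturation genes (x axes), as percent of gated cells (y axes) in 218 control and 797 Setdb1_cKO cells. The 11 genes separate the libraries with medians of 0.5 and 4, the immature neuron genes have medians of 83.5 and 76, and the maturation genes share a median of 5.

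Clustered protocadherins, cell surface proteins whose stochastic choice of isoforms gives each neuron its own adhesive identity, were another group with higher members. Each gene of the alpha and gamma clusters joins its own first exon to shared last exons, so 3′ reads in the shared exons cannot be assigned to 1 gene, and the counts below rest on the remaining reads. Of 5 measured alpha genes 2 were higher, of 16 beta genes 10, and of 17 gamma genes 8, with 1 gamma gene lower, against 3.86 percent and 7.09 percent of all measured genes. As with the germline list, members with few control UMIs passed the limit of 30 UMIs only through the Setdb1_cKO library, so the counts are a description. Their median log2 ratios were 1.07, 1.27 and 1.498, and 0.72, 1.07 and 1.99 without the cells that carried other RNA. Summed, the beta genes went from 129.9 to 260.5 CPM, a ratio of 2.01 (1.73 to 2.34), and the gamma genes from 116 to 282 CPM, a ratio of 2.43 (2.08 to 2.85).

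Within the gamma cluster the members went apart. Pcdhga7 had 9 UMIs in control and 355 in Setdb1_cKO, or 5.90 and 55.7 CPM, a ratio of 9.44 (4.92 to 20.8). Pcdhga12 had 15 and 301 UMIs, a ratio of 4.80 (2.87 to 8.69). Pcdhgc3, one of the C-type isoforms that are expressed without stochastic choice, was lower: 37 UMIs in control against 21 in Setdb1_cKO, or 24.3 and 3.30 CPM, a ratio of 0.136 (0.0756 to 0.238). Its ratio was 0.0985 (0.0368 to 0.241) without the cells that carried other RNA, 0.392 (0.187 to 0.779) in the neuroblasts and 0.161 in the Neurod6 neurons. Of the 17 measured gamma genes, 8 were thus higher and 8 neither higher nor lower. Pcdhgc3 was the 1 lower gene, and it was lower in all 3 neuronal gates.

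Among the beta genes, each with its own complete transcript, none was lower. Pcdhb17 was at 9.84 and 38.0 CPM, Pcdhb20 at 6.56 and 25.4 CPM and Pcdhb5 at 4.59 and 16.0 CPM, while Pcdhb7 (19.02 and 18.5 CPM) and Pcdhb16 (15.1 and 13.5 CPM) were alike within their intervals. Among 17 measured protocadherins and cadherins outside the clusters, 3 were higher and 3 lower. The X-linked delta-protocadherin Pcdh19 was at 11.1 and 45.2 CPM, a ratio of 4.06 (2.49 to 7.06). Because the libraries also differed in sex, sex and genotype cannot be told apart for an X-linked gene. Cdh4, R-cadherin, was lower, at 36.1 and 12.1 CPM (ratio 0.335, 0.234 to 0.483).

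**Figure D3:**
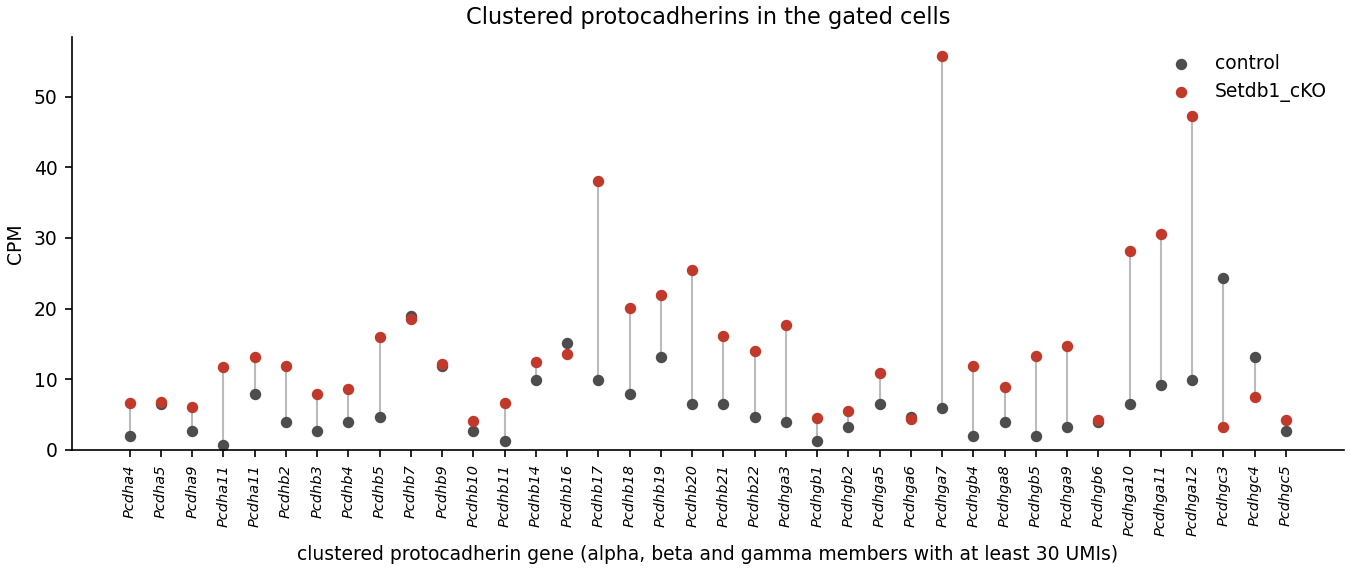
CPM of each measured clustered protocadherin gene (x axis, alpha, beta and gamma clusters in order) in gated control cells and gated Setdb1_cKO cells, joined by a line. Pcdhga7 and Pcdhga12 reach 55.7 and 47.3 CPM in Setdb1_cKO, Pcdhgc3 goes from 24.3 to 3.30 CPM, and 2 Ensembl identifiers carry the symbol Pcdha11.

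Several coding genes outside both groups were higher in the gated cells. Tbc1d9, a protein with the TBC domain of Rab GTPase-activating proteins, had 52 UMIs in control and 1669 in Setdb1_cKO, or 34.1 and 262 CPM, a ratio of 7.68 (5.83 to 10.3). Its ratio was 3.05 (2.10 to 4.53) in the neuroblasts and 2.14 (1.84 to 2.50) in the Neurod6 neurons, both intervals lying below that of the gated cells. Fam184a was at 11.8 and 127 CPM, a ratio of 10.8 (6.79 to 18.3), against 5.02 (2.88 to 9.35) in the neuroblasts and 2.34 (1.70 to 3.29) in the Neurod6 neurons. For both genes the gated cells held the highest level among these gates in Setdb1_cKO, and the difference between gates was not tested.

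Galr1, a receptor for the neuropeptide galanin, had 2 UMIs in control and 167 in 133 Setdb1_cKO cells, a ratio of 19.99 (5.45 to 166). In the neuroblasts it had 8 UMIs in each library, a ratio of 0.875 (0.286 to 2.67), and in the Neurod6 neurons the ratio was 2.28 (1.73 to 3.05). Dsp, desmoplakin, a desmosomal protein and a marker of mature granule neurons, had 5 and 164 UMIs, a ratio of 7.85 (3.30 to 24.5), and 14.0 (6.31 to 38.4) in the Neurod6 neurons. Mgl2, a C-type lectin of macrophages, had 1 and 165 UMIs in the gated cells. Its neighbour and near relative Clec10a had 2 and 127, and reads may be divided between the pair. Microglia held Mgl2 in 8.38% of thinned control and 13.1% of thinned Setdb1_cKO cells, against 0.459% and 9.54% of gated cells, and the ratio in the gated cells was 25.7 (4.54 to 1025) without the cells that carried microglial or other RNA.

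Adk, which encodes adenosine kinase, was the most abundant coding gene of this kind (chosen after its values were seen). It was at 67.6 and 342 CPM, a ratio of 5.06 (4.15 to 6.23), and after thinning was present in 15.1% of control and 63.1% of Setdb1_cKO cells, against 4.79% and 12.5% of microglia. The ratio was 3.42 (2.62 to 4.53) in the neuroblasts and 9.50 (8.03 to 11.3) in the Neurod6 neurons. Epb41l4a, a membrane skeleton protein, was at 5.90 and 51.0 CPM, a ratio of 8.65 (4.50 to 19.1), and was likewise chosen after its values were seen. Over the 239 higher genes, 222 were measured in the Neurod6 neurons, where 91 were also at least 2-fold higher and 14 at least 2-fold lower. Of the 80 measured in the neuroblasts, 34 were at least 2-fold higher and 6 lower, and of the 47 measured in microglia, 5 and 11. In all, 12214 genes were measured in the Neurod6 neurons, 8564 in the neuroblasts and 7700 in microglia. The shares of these past 2-fold are not given here, so the overlap cannot be set against that background.

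**Figure D4:**
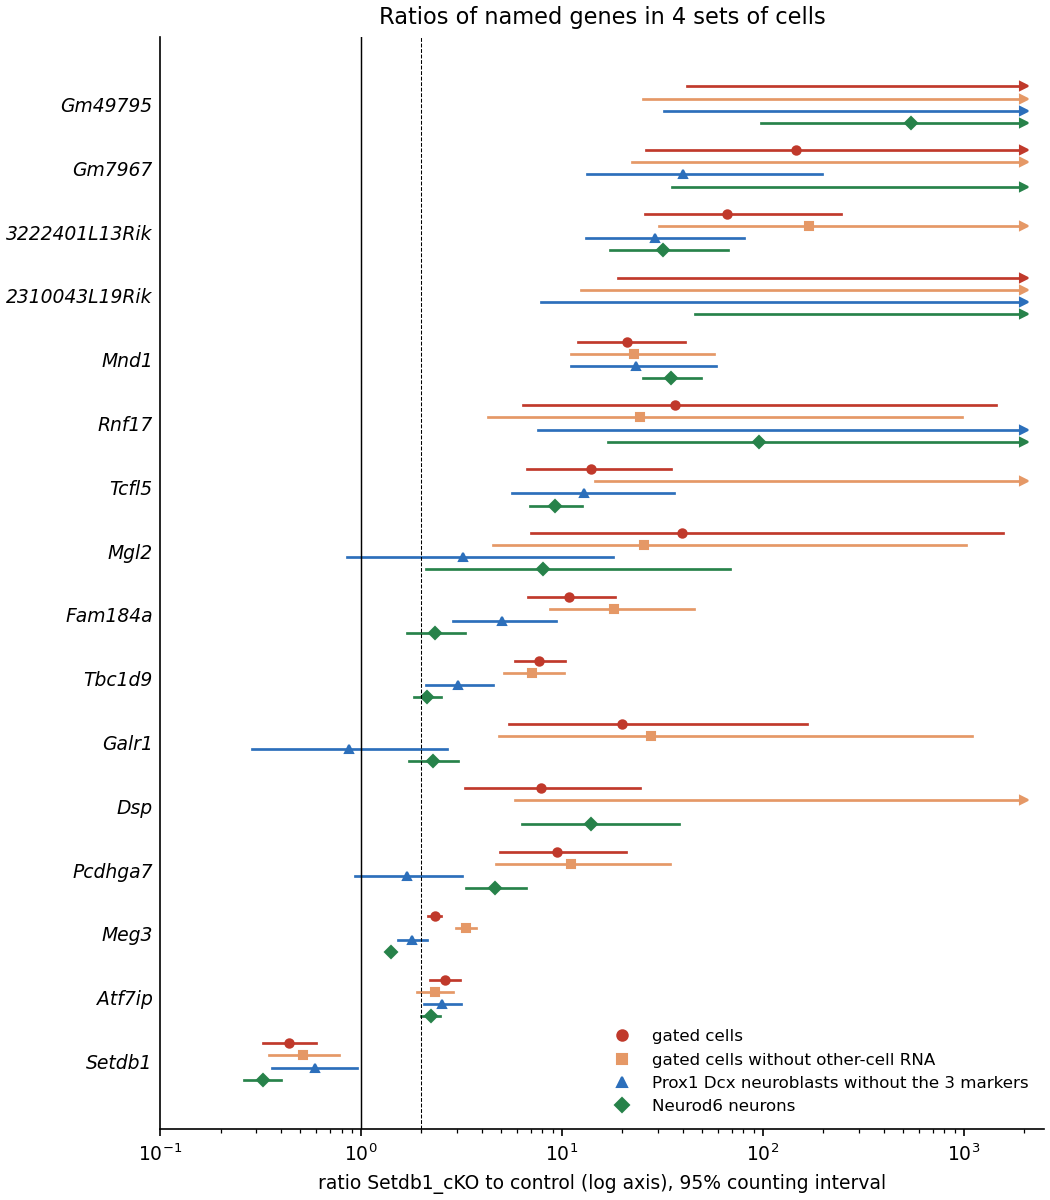
Ratio of Setdb1_cKO to control (x axis, log scale) with its counting interval for 16 genes in 4 sets of cells: the gated cells, the gated cells without other-cell RNA, the neuroblasts without the 3 markers and the Neurod6 neurons. No point is drawn where control had 0 UMIs, arrows run past the axis, and sets with under 10 UMIs of a gene are left out. Mnd1 lies between 21.1 and 34.9 in all sets, while Tbc1d9 goes from 7.68 in the gated cells to 2.14 in the Neurod6 neurons and Setdb1 lies below 1 throughout.

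Among 22 measured genes of H3K9 methylation and its partners, 1 was higher and 2 were lower. The higher one was Atf7ip, the nuclear partner that stabilises SETDB1, with 99.7 CPM in control against 260 CPM in Setdb1_cKO, a ratio of 2.61 (2.21 to 3.10). Its ratio was 2.54 (2.06 to 3.15) in the neuroblasts and 2.23 (1.99 to 2.49) in the Neurod6 neurons, so the difference had a similar size in all 3 neuronal gates. The lower ones were Setdb1 and Uhrf1, and Uhrf1, a gene of dividing cells, had 1 and 5 UMIs without the cells that carried other RNA. Trim28, the KRAB zinc finger co-repressor that recruits SETDB1, was at 95.8 and 84.3 CPM, and Suv39h1, another H3K9 methyltransferase, at 22.3 and 18.5 CPM, both with intervals that included 1. Of 271 measured zinc finger protein genes, 12 were higher and 7 lower, against 3.86 and 7.09 percent of all measured genes. The list as a whole thus did not stand out. Single members did, with Zfp992 at 2 and 87 UMIs and Zfp597 at 6 and 126.

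Of 29 measured imprinted genes, expressed from 1 parental allele, 6 were higher and none lower, against 3.86 and 7.09 percent of all measured genes. The 3 noncoding RNAs of the maternal Dlk1-Dio3 transcript were among them: Meg3 was at 531 and 1236 CPM, a ratio of 2.33 (2.17 to 2.51), Rian at 32.1 and 93.6 CPM (2.91, 2.17 to 3.98), and Mirg had 1 and 32 UMIs. Without the cells that carried other RNA the ratios of Meg3 and Rian were 3.33 (2.98 to 3.75) and 5.40 (3.29 to 9.54). Cdkn1c, the cell cycle inhibitor p57, had 45 and 501 UMIs, a ratio of 2.67 (1.96 to 3.70). In the Neurod6 neurons the Meg3 ratio was 1.41 (1.37 to 1.44), although its level there was higher, at 2018 and 2841 CPM. Blcap (1.67) and Herc3 (1.86) were the others.

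The transcription factors that define granule neurons differed little. Of 19 measured, none was 1.5-fold higher and 2 were lower, and the median log2 ratio was -0.22. Zbtb20, a factor of hippocampal identity, was at 5635 and 4588 CPM (0.814, 0.795 to 0.834). Bcl11b had a ratio of 0.763 (0.692 to 0.842), and Mef2c, an activity-regulated factor, 1.27 (1.13 to 1.42). Bcl11b had a ratio of 1.05 (0.829 to 1.33) in cells with 0 or 1 marker UMIs after thinning and of 0.643 (0.556 to 0.745) in those with 4 or more, with 484 CPM in control against 311 CPM in Setdb1_cKO. Emx2, a patterning factor of the medial pallium, was at 82.6 and 42.6 CPM (0.515, 0.415 to 0.641), and still at 0.574 (0.431 to 0.773) without the cells that carried other RNA. Klf9, at 0.622 (0.446 to 0.881), was at 1.40 (0.588 to 4.03) without them.

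Genes of granule neuron maturation went both ways, with 5 of 21 measured higher and 4 lower, against 3.86 and 7.09 percent of measured genes. Their median log2 ratio was 0.13. Those higher were Ppfia2, a presynaptic liprin (69.5 and 122 CPM), Stxbp6 (69.5 and 106 CPM), Dsp, Tdo2 (4 and 64 UMIs) and Plk5 (1 and 31 UMIs). Dock10, Maml2, Icam5 and Nptx1 were lower, at 11.8 to 15.7 CPM in control, and of these 4 none kept an interval below 1 without the cells that carried other RNA. Sema5a, a semaphorin of granule neurons, was at 491 and 350 CPM (0.713, 0.656 to 0.776). Summed, the maturation genes were at 1827 and 1878 CPM. Their summed ratio was 1.23 (1.12 to 1.35) in cells with 0 or 1 marker UMIs after thinning, 1.03 (0.953 to 1.11) with 2 or 3 and 0.832 (0.784 to 0.884) with 4 or more, and 71 of 218 control but 363 of 797 Setdb1_cKO cells were in the last group. Immature neuron genes were also close, with 0 of 19 higher, Sox4 alone lower at 976 and 633 CPM (0.649, 0.611 to 0.689) and a median of 0.02. Their distribution over cells was not the same: their 10th percentile over thinned cells was 33.7 UMIs in control and 56 UMIs in Setdb1_cKO. The other quantiles went the other way, with a median of 83.5 and 76 UMIs and a 90th percentile of 100 and 90 UMIs. Without the cells that carried other RNA the summed ratio of the immature neuron genes was 0.890 (0.878 to 0.902).

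Synaptic genes had medians near 0, 0.02 for 25 synaptic vesicle genes (3 higher, none lower) and 0.02 for 28 postsynaptic density and adhesion genes (2 higher, 2 lower). Slc17a6, a vesicular glutamate transporter, was at 16.4 and 31.4 CPM, a ratio of 1.92 (1.26 to 3.03). Nrxn3, a presynaptic adhesion receptor, was at 28.2 and 55.6 CPM (1.97, 1.43 to 2.77), and its postsynaptic partner family member Nlgn1 at 49.2 and 80.4 CPM (1.63, 1.28 to 2.11). Camk2a, the kinase of mature synapses, had a ratio of 0.648 (0.488 to 0.869), but 1.95 (0.982 to 4.42) without the cells that carried other RNA. Snap25, a core fusion protein, was at 115 and 139 CPM. By marker level after thinning, the synaptic vesicle genes had a summed ratio of 1.17 (1.08 to 1.26) in cells with 0 or 1 marker UMIs, where glial RNA was highest in control, and of 0.897 (0.851 to 0.947) in cells with 4 or more.

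Receptors for glutamate and GABA differed in single subunits. Of 25 glutamate receptor genes 1 was higher and 5 were lower, against 3.86 and 7.09 percent of all measured genes. Gria1, the GluA1 subunit of AMPA receptors, was at 180 and 109 CPM (0.606, 0.526 to 0.699), and Cnih3, an auxiliary subunit of the same receptors, at 90.5 and 39.3 CPM (0.434, 0.351 to 0.538). Without the cells that carried other RNA these ratios were 0.569 (0.479 to 0.678) and 0.372 (0.289 to 0.481). Gria2, the subunit that limits calcium entry, was at 633 and 597 CPM, with an interval that included 1. Grin2a, the NMDA receptor subunit of later development, was at 22.3 and 6.59 CPM (0.296, 0.184 to 0.479), while Grin2b, that of early development, was at 303 and 363 CPM. Of 12 GABA-A receptor and chloride transporter genes 2 were higher and none was lower. Gabra5, the subunit of extrasynaptic receptors, was at 126 and 233 CPM (1.85, 1.59 to 2.16), and Gabrg3 at 16.4 and 36.0 CPM (2.19, 1.45 to 3.46). The counts of Gabra5 are uncertain, since the use of strand in counting is not stated.

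Ion channel genes were nearly level: none of 20 sodium and calcium channel genes passed the limit, and of 27 potassium and HCN channel genes 1 was higher and 3 were lower. Axon guidance genes had 5 of 30 higher and 2 lower, against 3.86 and 7.09 percent of all measured genes, with a median of -0.13. The higher ones were the repulsive ligands Sema3a (11.8 and 26.5 CPM) and Sema3e (24.9 and 48.5 CPM), the ephrin receptor Epha3 (5.90 and 14.6 CPM), Plxna1 and Efnb3. Of 16 neuropeptide and growth factor genes 5 were higher and 2 lower: Scg2, a secretogranin of dense-core vesicles, was at 13.1 and 31.6 CPM (2.41, 1.52 to 4.02) and Grp, gastrin-releasing peptide, at 17.7 and 33.9 CPM. Of 19 neurofilament and microtubule genes 2 were higher and 3 lower. Nefl, the light neurofilament, was at 53.8 and 22.8 CPM, a ratio of 0.423 (0.321 to 0.562), but at 1.70 (0.876 to 3.67) without the cells that carried other RNA.

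The lowest genes in Setdb1_cKO were mostly genes of dividing cells. The 15 that ranked lowest were Hist1h1b, Mki67, Ccnb1, Spc25, Top2a, Kif11, Birc5, Plk1, Inka2, Hmmr, Pdgfra, Cdca3, Prc1, Cdk1 and Knl1. Mki67, the proliferation marker, had 151 UMIs in control and 65 in Setdb1_cKO, or 99.0 and 10.2 CPM, a ratio of 0.103. Hist1h1b, a linker histone of S phase, had 195 and 56 UMIs, a ratio of 0.0688. At least 2 UMIs of Mki67, Top2a, Cdk1 and Ccnb1 were found in 18 control (8.04%) and 15 Setdb1_cKO cells (1.87%), and these held 99.2% and 91.5% of the UMIs of the 4 genes. Cells left out as carrying other RNA include those with these 4 genes, so their ratios in the remaining cells are set by that choice. Hist1h1b, which was not used to leave cells out, was then at 0.314 (0.036 to 3.76) and Inka2 at 0.167 (0.0332 to 0.778). The part of the cycling cells in the low ratios was not tested.

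Fewer genes were lower without those cells, which were chosen in part by cell cycle and glial genes that were themselves lower. Chosen after their values were seen, the transcriptional regulator Lmo3 had a ratio of 0.379 in all gated cells and 0.311 without the cells that carried other RNA, the somatostatin receptor Sstr2 0.484 and 0.397, and the proneural factor Neurog2 0.399 and 0.320. Fabp7, the brain fatty acid-binding protein of radial glia and itself one of the glial markers used to leave cells out, was at 0.476 and 0.409 but near 1 in cells with at least 5 marker UMIs (log2 ratio 0.0268), and Sox4 at 0.649 and 0.562. Of the 405 genes at least 2-fold lower, 46 were also among the 128 at least 2-fold lower without those cells, 11.4% of the first list and 35.9% of the second. For the 239 higher genes, 130 were shared with the 229 found without those cells, or 54.4% and 56.8%.

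Among lists of stress and metabolism, cholesterol synthesis genes had 8 of 22 lower and none higher, against 7.09 and 3.86 percent of measured genes. Their median log2 ratio was -0.42, and -0.07 without the cells that carried other RNA (2 of 21 lower). Immediate early and heat shock genes had 6 of 21 lower, against 7.09 percent of measured genes, and a median of -0.30. Egr1, an activity-induced factor, was at 95.8 and 32.7 CPM (0.341, 0.275 to 0.424). Without those cells the Egr1 ratio was 0.488 (0.176 to 1.55), and 1 gene of 15 was higher and 1 lower. Of 7 measured interferon response genes (33 listed) 1 was higher, and of 6 MHC class I and immunoproteasome genes none passed the limit. The interferon genes summed to 178 and 153 CPM, a ratio of 0.859 (0.75 to 0.986), and to a ratio of 0.717 (0.599 to 0.861) without the cells that carried other RNA, where 4 of them were measured with a median log2 ratio of -0.65. Of 25 unfolded protein and integrated stress response genes 1 was higher and 1 lower, and of 16 p53 target and apoptosis genes 1 was higher, Bbc3 (19.7 and 35.6 CPM).

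Cytosolic ribosomal protein genes were higher together by a small amount, with a median log2 ratio of 0.19 over 76 genes, 5 of them past 1.5-fold, and a summed level of 138459 and 166690 CPM, a ratio of 1.20. Nuclear oxidative phosphorylation subunits had a median of 0.00 over 74 genes and mitochondrially encoded genes 0.05 over 13.

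**Figure D5:**
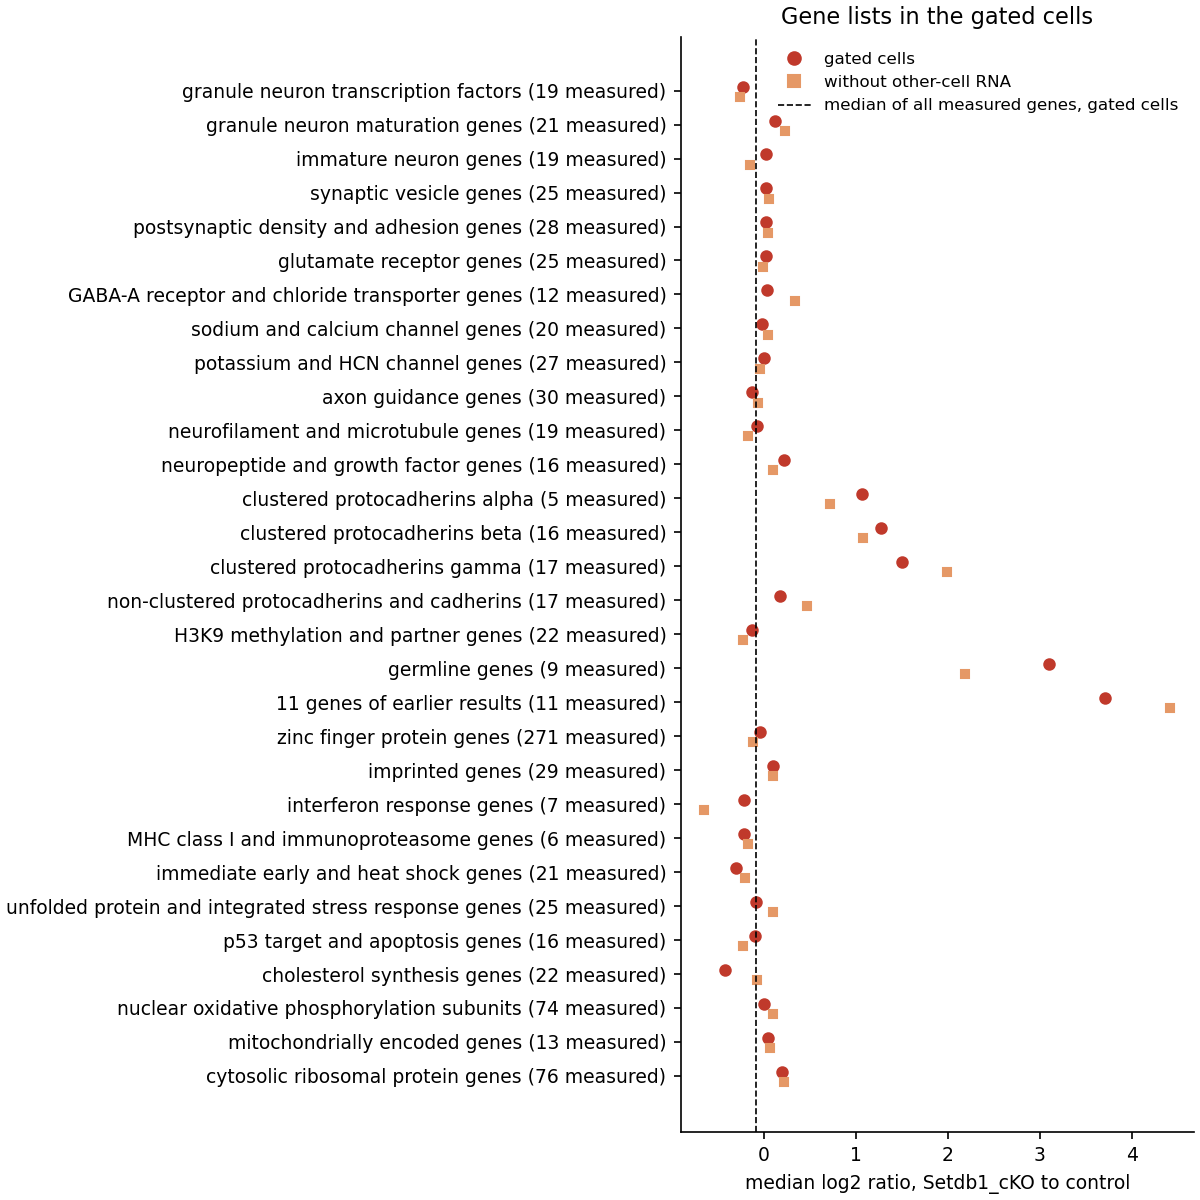
Median log2 ratio of Setdb1_cKO to control (x axis) for 30 gene lists (y axis, with the number of measured genes), in all gated cells (circles) and without the cells that carried RNA of other types (squares), with the median of all measured genes dashed at -0.09. The germline list, the 11 genes of earlier results and the 3 protocadherin clusters lie between 0.72 and 4.42, all other lists between -0.65 and 0.47.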

How the data were processed

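Each deposited matrix gives raw UMI counts, written by Cell Ranger 7.1.0 according to the file headers. The submitters' processing notes name mm10 and Seurat. The sources used here do not give the annotation release, the intron setting, the use of strand or how cells were called. Cells were kept with 1000 or more UMIs, 500 or more genes and a mitochondrial share of up to 10%, and doublets were called with Scrublet (in scanpy 1.11.5, expected rate 8%) but not removed. The gate read the raw counts. UMIs of gated cells were summed per library and divided by their total to give CPM. Ratios carry exact conditional Poisson intervals at 95%, log2 ratios use a pseudocount of 0.5 UMI, and a gene counted as measured when both libraries together gave 30 UMIs or more. A gene was called in a list at 1.5-fold with an interval that excluded 1. Simulated independent Poisson counts served only to check that the intervals were computed correctly. They lack the clumping of UMIs in few cells, and the 2-fold and 1.5-fold limits were not tested on them. numpy 2.4.6, scipy 1.17.1 and pandas 2.3.3 were used. Coordinates are from GENCODE vM21, which held 32235 of 32285 gene identifiers.

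Cells with 10 or more UMIs of glial, 5 or more of erythroid, or 2 or more of oligodendroglial, microglial, vascular, fibroblast, ependymal or cell cycle genes were left out in the alternative without RNA of other cell types, which was chosen after seeing the data. The members and the gene lists were chosen with earlier results of these data known. Named genes were the 15 highest and 15 lowest by the interval bound nearest 1 among genes that reached 20 CPM in either library, without gate, sex-linked, ribosomal protein, haemoglobin and mitochondrial genes. Setdb1, up to 6 members per list past 2-fold and up to 4 of highest level were named too. Other genes were named after their values were seen.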

Additional observations from a re-analysis of the deposited data

Results flagged for a closer look

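For 11 of the 15 lowest genes the counting intervals lay on opposite sides of 1 in 2 neuronal gates: lower in Setdb1_cKO in the maturing granule neurons and higher in the Prox1 and Dcx neuroblasts without C1ql3, Nrgn and Calb1. The ratio of Setdb1_cKO to control in those neuroblasts was 1.65 for Spc25, 1.80 for Cdca3, 2.19 for Prc1, 2.04 for Plk1, 1.96 for Mki67 and 1.73 for Cdk1. It was 1.70 for Top2a, 1.49 for Hist1h1b, 2.12 for Ccnb1 and 1.82 for Kif11, all of them genes of dividing cells, and 1.96 for Pdgfra, a gene of oligodendrocyte precursors. The difference between the gates was not tested, since each genotype has 1 library. Cells with RNA of other types were not left out of these neuroblasts. In the maturing granule neurons, 18 control and 15 Setdb1_cKO cells held 99.2% and 91.5% of the UMIs of Mki67, Top2a, Cdk1 and Ccnb1.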

How the results depend on the processing

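No paired analysis was possible because each genotype has 1 library. All 15 highest genes kept their direction under every alternative in which they were measured (at least 30 UMIs), and 13 of the 15 lowest did. Over the genes named, 17 of 1358 values turned direction, 160 moved beyond their interval and 1181 did not. Of the list medians, 451 of 471 stayed within the spread of their members' intervals, and 41 of 112 shares of cells with a UMI stayed within theirs at another thinning depth. The cause of these differences was not tested. With 2 marker UMIs the gate held 337 control cells, with 398 genes at least 2-fold higher and 150 with the whole interval higher. With 5 it held 115, with 182 genes lower, 49 and 24 with the whole interval higher and lower, an immature neuron median of -0.11, and log2 ratios of 0.0268 for Fabp7 and -0.0646 for Mef2c. Without any Calb2 or Reln it held 127 control cells. Gated on thinned cells, 140 genes were lower, 27 with the whole interval, the immature median was -0.13, and Egr1 (0.17), Fabp7 (0.0198), Hist1h1b (1.41) and Top2a (0.96) were higher. Without cells with RNA of other types, 128 genes were lower, 7 with the whole interval, the immature median was -0.15, and Camk2a (0.90), Klf9 (0.38) and Nefl (0.70) were higher. With 3 to 6 marker UMIs only, 357 Setdb1_cKO cells and 41 genes with the whole interval higher were left, and Nefl was at 0.35. With the stricter cell filter Camk2a was at 0.64. At 100 UMIs per gene 102 genes were higher and 128 lower, 44 and 47 with the whole interval.

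Leaving out cells with 2 pyramidal marker UMIs, a list that granule neurons also express, kept 37 and 77 cells, with 67 genes higher and 117 lower, 11 and 24 with the whole interval. Medians were 0.21 for immature neuron genes, 0.78 for sodium and calcium channels, -0.565 for neuropeptides and 0.16 for mitochondrial genes. Requiring no Dcx kept 15 and 32 cells, with 66 genes higher and 93 lower, 6 and 21 with the whole interval. Medians were then 0.36 for granule neuron transcription factors, 0.79 for maturation, 0.29 for immature neuron genes, 0.50 for postsynaptic genes, 0.38 for GABA-A receptors, 0.43 for axon guidance, 0.26 for neurofilaments, 2.71 for the 11 genes of earlier results, -0.31 for oxidative phosphorylation, 0.31 for mitochondrial and -0.0443 for ribosomal protein genes. In these cells Egr1 (0.23), Fabp7 (0.0186), Sema5a (0.65), Sox11 (0.33), Sox4 (0.60) and Zbtb20 (0.25) were higher. With a median-of-ratios size factor the mitochondrial and ribosomal protein medians were 0.12 and 0.27. Depth limits the genes with few control UMIs most, since the control library gave 1524750 of the gated UMIs and the Setdb1_cKO library 6368933.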
